A study of Mus musculus with 180 samples.

Results

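Pacritinib and Ruxolitinib are 2 of the 58 clinical kinase inhibitors (CKIs) whose effects on activated macrophages were measured by RNA-seq, and both were developed against kinases of the JAK family. They were chosen by name, as the samples whose treatment label holds either drug, so 6 of the 180 samples are described here, 3 for each JAK inhibitor (JAKi), beside the 6 samples that received the solvent DMSO. Every sample was of wild type bone marrow-derived macrophages (BMDM), which are grown in culture from the marrow of male C57/BL6 mice of several weeks of age. The cells were given Pacritinib, Ruxolitinib or DMSO for 1 h and then LPS, a cell wall component of Gram-negative bacteria that activates TLR4, at 10 ng/ml for 2 h. LPS was thus present in all groups, controls included, and no unstimulated sample enters the comparisons. Each JAKi was used at the concentration of half-maximal binding to a JAK family member in kinobeads assays (affinity beads that pull kinases out of cell lysates), TYK2 for Pacritinib and JAK2 for Ruxolitinib. Both concentrations were in the nanomolar range, and that of Ruxolitinib was several times lower. Because the concentrations differed, the 2 drugs were not tested against each other and their values are given side by side. The titles number the samples R1 to R3 in each group and divide the DMSO samples into s1 and s2, without saying what these sets are.

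JAK kinases sit on the cytoplasmic tails of cytokine receptors. When a cytokine binds, they phosphorylate the receptor and then STAT transcription factors, which enter the nucleus and bind GAS sites as dimers or, in a complex that holds STAT2 and IRF9, ISRE sites. In macrophages LPS induces interferon beta (*Ifnb1*) through TLR4, and the secreted interferon acts back on the same cells through the receptor IFNAR, which uses TYK2 and JAK1, so that a second wave of genes depends on JAK activity. IL-10 and IL-6 signal through JAKs to STAT3, and SOCS proteins and CISH, which are induced by STATs, shut the receptors off again. Pacritinib also binds FLT3, IRAK family kinases and the BMP receptor kinase ACVR1, whereas Ruxolitinib is a selective JAK1 and JAK2 inhibitor.

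The values are exonic read counts that the authors scaled on genes of stable expression, and are called normalized values here. They summed to 9481416 to 11094387 in the DMSO samples, to 9843322 to 11641820 with Pacritinib and to 10068177 to 10198051 with Ruxolitinib. Macrophage markers were high as a list in every group. They summed to 380292 to 602588 with DMSO, 401527 to 612950 with Pacritinib and 405596 to 494758 with Ruxolitinib. *Csf1r*, the M-CSF receptor, stood at 23145 to 27291 over the 12 samples. *Cd68* varied more, from 3124 to 11311 with DMSO and from 4657 to 16295 with Pacritinib. The B cell genes summed to 7 to 35 with DMSO, 5 to 52 with Pacritinib and 11 to 20 with Ruxolitinib. The Pacritinib samples were not alike. Mitochondrially encoded genes held 4.2% of the summed values in R1 and 3.39% in R2 but 0.892% in R3, against 0.759 to 1.94% in the DMSO samples and 1.05 to 1.13% with Ruxolitinib. The summed value of neutrophil and granule genes was likewise 2337 and 2674 in Pacritinib R1 and R2 and 758 in R3 (DMSO 641 to 1771, Ruxolitinib 1132 to 1230). In all 14 genes of that list the highest Pacritinib value exceeded the highest DMSO value, although 0 of the 12 tested passed. The margin was wide for *S100a8* (606 against 307) and *Retnlg* (23 against 1) and narrow for *Cxcr2* (290 against 284) and *Ly6g* (2 against 1). The same held for 18 of the 25 macrophage identity genes. Over all 12714 genes tested, Pacritinib R1 lay above every DMSO sample in 3061 and R2 in 4796. A highest Pacritinib value above the DMSO range was thus common among all genes. Its share over all genes was not computed, so neither list count is read as particular to its list. With the mitochondrial share as a covariate, in a fit that also held a replicate block, 2 genes (0.0157%) passed an adjusted p of 0.05 for Pacritinib and 19 (0.149%) for both drugs together. The part of the neutrophil genes in the results below was not tested.

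**Figure D1:**
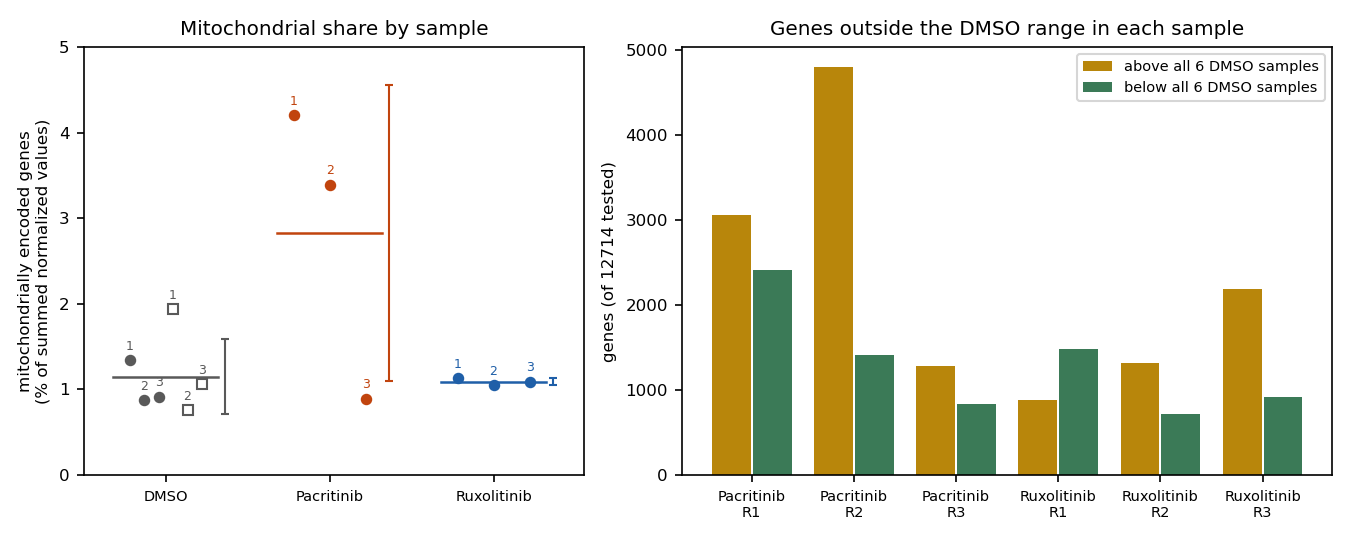
Share of the summed normalized values held by mitochondrially encoded genes in each sample (left, in percent; bar, mean; whisker, 1 SD; filled circles, DMSO s1; open squares, DMSO s2; digits, replicate), and the number of the 12714 genes tested that lay above or below all 6 DMSO samples in each treated sample (right). Pacritinib R1 and R2 stand at 4.2% and 3.39% and have 3061 and 4796 genes above the DMSO range, whereas Pacritinib R3 has 0.892% and 1288 genes above it.

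With the 6 samples of both low-dose JAKi averaged, the transcription factor *Irf8* and the antiviral gene *Rbm43* were lower than with DMSO. *Id3* and *Trem1* were higher, and a small number of other genes also differed. The calls were lost with only the compared groups in the fit, against either DMSO set alone and without certain single libraries. DMSO itself stood near an end of all 59 groups for these named genes, as given below. Whether the drugs caused the differences was not tested. Of 12714 genes tested, 19 (0.149%) passed an adjusted p of 0.05 in limma's moderated test, of which 11 were higher (0.0865%) and 8 lower (0.0629%) than with DMSO. Pacritinib alone gave 22 DEGs (0.173%), 15 higher (0.118%) and 7 lower (0.0551%). Ruxolitinib alone gave 0 in limma's test, with 590 genes (4.64%) at an unadjusted p under 0.05, 294 higher and 296 lower. By number of DEGs Pacritinib ranked 30th of the 58 CKIs. Ruxolitinib shared the 42nd and last place with every other CKI that had 0 DEGs. Both came after the other JAKi Filgotinib (2637 DEGs), Tofacitinib (1256), BMS911543 (1087) and Momelotinib (100). The comparisons share the 6 DMSO samples. The median log2 fold change of all genes was 0.10 for Pacritinib, 0.04 for Ruxolitinib and 0.07 for both together. Scaling the samples a second time, by the median of ratios, gave 39 DEGs for Pacritinib (17 higher and 22 lower) and 46 for both (13 higher and 33 lower). A log2 fold change of 1 gene had a median standard error of 0.217 with 3 samples against 6 and of 0.178 with 6 against 6, which limits what was detectable. The p-values rest on a spread between samples that was estimated over all 59 groups in 1 fit. With only the compared groups in the fit, 0 genes passed for Pacritinib, for Ruxolitinib and for both together. In bulk RNA, fewer cells of a type cannot be told apart from less RNA per cell.

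The number of DEGs hung on single libraries. Without Pacritinib R3 it was 1989 for Pacritinib (15.6%; 1530 higher, 12.0%, and 459 lower, 3.61%) and 283 for both together (2.23%; 168 higher, 1.32%, and 115 lower, 0.905%). R3 was the Pacritinib library nearest to DMSO, so that a larger count without it is fixed by which library is left out and is given as a description only. Without Pacritinib R1 it was 0 in both comparisons, and without Pacritinib R2 it was 1 in each. For both together it was also 0 without DMSO s2 R2 or Ruxolitinib R3, 6 without DMSO s1 R2, 10 without Ruxolitinib R1, 47 without Ruxolitinib R2 and 80 without DMSO s2 R1. For Pacritinib it was 6 to 11 without DMSO s1 R2, s1 R3, s2 R2 or s2 R3 and 138 without DMSO s2 R1. For Ruxolitinib it was 0 whichever library was left out.

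*Irf8* encodes an interferon regulatory factor that, with PU.1, drives the macrophage program and many interferon and LPS response genes. Its normalized value with DMSO was 3944, 5289 and 5012 in s1 and 3786, 7541 and 3680 in s2 (4875 ± 1468, SD, n = 6). It was 1786, 1592 and 3493 with Pacritinib (2290 ± 1046, n = 3) and 1841, 2484 and 1405 with Ruxolitinib (1910 ± 542.8, n = 3). All 6 treated samples lay below all 6 DMSO samples, with Pacritinib R3 the closest to them, which held for 35 (0.275%) of the 12714 genes, while 36 (0.283%) had all 6 above. *Irf8* was 2.36-fold lower with both JAKi together (log2 fold change -1.24 ± 0.25, SE; 95% interval -1.73 to -0.74; adjusted p = 0.0145, limma). The change was -1.13 ± 0.31 for Pacritinib (adjusted p = 0.0845) and -1.34 ± 0.31 for Ruxolitinib (adjusted p = 0.319), where *Irf8* had the smallest p of all genes (2.51e-05). The intervals of the single drugs were -1.74 to -0.53 and -1.95 to -0.74. The call for both together was lost without DMSO s2 R2, the highest control (adjusted p = 0.106), Pacritinib R1 (0.0821), Pacritinib R2 (0.145) or Ruxolitinib R3 (0.116), while the log2 fold change stayed between -1.41 and -1.10 in 24 alternatives.

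The promoter of *Irf8* is shown with those of 3 further genes described here, because GAS and ISRE sites are where STATs and interferon regulatory factors act. The 4 were chosen because they hold a match, and *Irf1* is not a DEG. Each sequence is the 250 bases before the transcription start in RefSeq (GRCm38.p6), read 5′ to 3′ on the gene's strand, with matches in capitals. The motifs were TTCNNNGAA (GAS, the same on both strands) and the core of the ISRE, GAAA, any 2 bases and GAAA again, on either strand. *Irf8* (chr8:120736108-120736357, plus strand) holds a pair of GAS matches, 171 and 153 bases before the start. *Trem1* (chr17:48232489-48232738, plus strand) holds 1 GAS match at 171 bases, *Irf1* (chr11:53769764-53770013, plus strand) 1 at 90 bases, and *Rbm43* (chr2:51935164-51935413, minus strand) 2 overlapping ISRE matches at 224 and 218 bases. *Irf8*, *Irf1* and *Rbm43* each have another listed start, whose 250 bases hold 0 matches. Matches also lay at genes described here that are not DEGs. *Bcl6* held 3 GAS matches at 1 start and 1 at another, and *Myd88* 1 of each motif. *Socs1* held 2 ISRE matches, *Stat2* 1 ISRE match, and *Socs3* and *Ifnar2* 1 GAS match each.
Irf8: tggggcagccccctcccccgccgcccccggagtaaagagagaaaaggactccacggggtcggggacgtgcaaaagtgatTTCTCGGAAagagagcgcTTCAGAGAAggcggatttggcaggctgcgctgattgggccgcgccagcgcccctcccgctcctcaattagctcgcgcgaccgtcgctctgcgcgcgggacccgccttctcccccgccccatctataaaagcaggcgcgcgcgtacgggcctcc
Trem1: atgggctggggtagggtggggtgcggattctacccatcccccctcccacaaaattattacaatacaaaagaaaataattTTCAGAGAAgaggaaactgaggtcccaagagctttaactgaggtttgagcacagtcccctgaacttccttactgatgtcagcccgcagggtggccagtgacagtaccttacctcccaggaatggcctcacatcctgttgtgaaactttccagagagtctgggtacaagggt
Irf1: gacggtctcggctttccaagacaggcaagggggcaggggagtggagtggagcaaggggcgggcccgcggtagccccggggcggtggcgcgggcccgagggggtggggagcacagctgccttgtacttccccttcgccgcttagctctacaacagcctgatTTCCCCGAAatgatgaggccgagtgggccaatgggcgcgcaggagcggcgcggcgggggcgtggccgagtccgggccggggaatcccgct
Rbm43: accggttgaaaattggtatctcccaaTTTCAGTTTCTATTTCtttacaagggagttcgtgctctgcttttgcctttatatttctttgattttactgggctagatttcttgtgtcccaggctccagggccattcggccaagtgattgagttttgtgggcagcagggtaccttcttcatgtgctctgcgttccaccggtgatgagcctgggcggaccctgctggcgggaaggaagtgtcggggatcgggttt
A GAS match was found in 7.02% of the 32851 promoters of all genes and an ISRE match in 2.98%. Among the 11607 promoters of the genes tested these shares were 5.94% and 2.92%. Of the 19 DEGs of both JAKi together, 17 were matched to 25 promoters, of which 2 held GAS (*Irf8* and *Trem1*) and 1 held ISRE (*Rbm43*). Of the 22 DEGs of Pacritinib, 15 were matched to 21 promoters, and 0 held either motif. For comparison, 43.7% of the 87 promoters of the interferon-stimulated genes held ISRE and 13.8% held GAS.

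The kinases themselves did not pass the test. With both JAKi together the log2 fold change was -0.09 ± 0.13 for *Jak1*, 0.01 ± 0.22 for *Jak2*, -0.10 ± 0.13 for *Jak3* and -0.14 ± 0.12 for *Tyk2*, with adjusted p of 0.569 or above. The sign of *Jak2* turned with a second scaling (-0.055). *Tyk2*, the kinobeads target of Pacritinib, had values of 484 to 897 with DMSO and 531, 566 and 696 with Pacritinib, and *Jak2*, that of Ruxolitinib, 186 to 517 with DMSO and 283, 387 and 236 with Ruxolitinib.

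The STAT factors were lower on average with each drug, but 0 of the 6 tested passed. *Stat4* had values of 1 to 10 over the 12 samples and was below the minimum of a mean of 10. The median log2 fold change of the 6 was -0.49 for Pacritinib, -0.42 for Ruxolitinib and -0.46 for both, with 6 of 6 below 0 in each, against medians of 0.10, 0.04 and 0.07 over all genes. *Stat2*, a member of the ISRE-binding complex, had values of 1001 to 2636 with DMSO, 717, 826 and 1390 with Pacritinib and 897, 1462 and 866 with Ruxolitinib. Pacritinib R1 and R2 and Ruxolitinib R1 and R3 lay below the DMSO range and the other two within it. Its log2 fold change was -0.72 ± 0.29 for Pacritinib, -0.56 ± 0.29 for Ruxolitinib and -0.64 ± 0.24 for both (adjusted p = 0.219, limma). *Stat5a*, which transmits GM-CSF and IL-3 signals, came to -0.73 ± 0.27 and -0.61 ± 0.27. *Stat3*, used by IL-10 and IL-6, came to -0.34 ± 0.13 and -0.32 ± 0.13 and *Stat5b* to -0.45 ± 0.19 and -0.36 ± 0.19. *Stat6*, the STAT of IL-4, stood near 0 with both drugs (-0.07 ± 0.10 and -0.03 ± 0.10). The median of the list in single samples ran from -0.31 to 0.68 with DMSO and was -0.77, -0.65 and -0.08 with Pacritinib and -0.50, -0.19 and -0.56 with Ruxolitinib, so the groups overlapped. Each Ruxolitinib sample, however, lay below both DMSO samples of its own number, whereas Pacritinib R3 lay above both of its number.

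**Figure D2:**
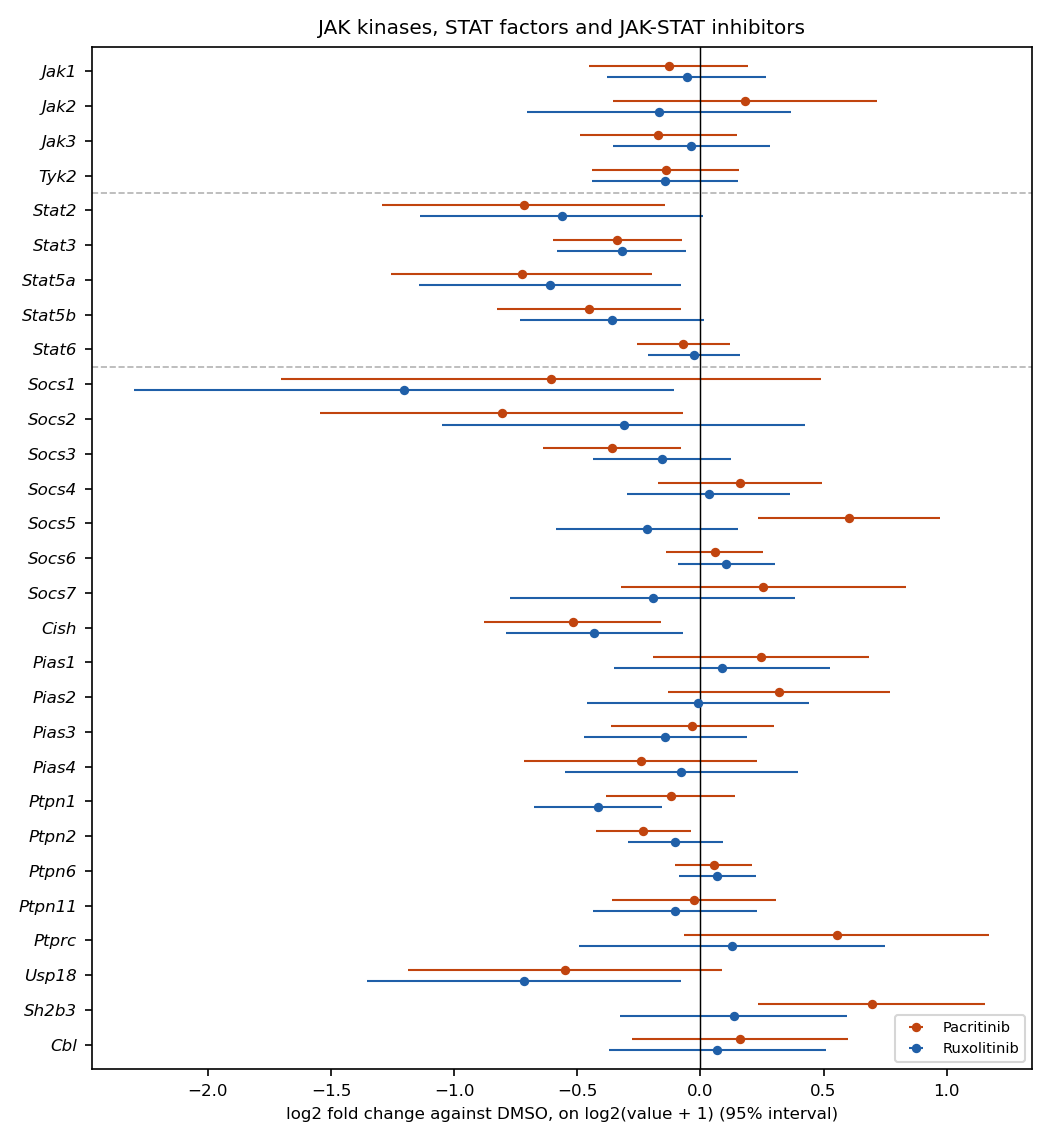
Log2 fold change against DMSO, on log2(normalized value + 1), of the JAK kinases, STAT factors and JAK-STAT inhibitors (points) with 95% intervals (lines), for Pacritinib and Ruxolitinib; dashed lines divide the 3 classes. The 5 STAT factors drawn lie left of 0 with both drugs, from -0.73 (*Stat5a*, Pacritinib) to -0.03 (*Stat6*, Ruxolitinib), and 0 genes shown passed an adjusted p of 0.05.

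Receptors that signal through JAKs gave 0 calls among the 17 of 20 tested, with 10 below 0 for both together and a median of -0.07. In 3 of the 17, every treated sample lay below every DMSO sample, as in 0.275% of all genes. *Il10ra*, the ligand-binding chain of the IL-10 receptor, had values of 4206 to 6167 with DMSO, 3368, 2987 and 4032 with Pacritinib and 3566, 3993 and 3237 with Ruxolitinib. All treated samples lay below all DMSO samples, and the log2 fold change was -0.51 ± 0.15 for Pacritinib, -0.45 ± 0.15 for Ruxolitinib and -0.48 ± 0.12 for both (adjusted p = 0.0502, limma). *Il4ra*, the IL-4 receptor alpha chain, had values of 7673 to 11680 with DMSO, 5177, 4009 and 7019 with Pacritinib and 6649, 6442 and 6412 with Ruxolitinib. These too did not overlap, with a log2 fold change of -0.72 ± 0.20 for both (adjusted p = 0.0914). For *Il10ra* and *Il4ra* DMSO ranked near the top of all 59 groups, as given below. *Il13ra1*, which pairs with it to bind IL-13, came to -0.58 ± 0.18 for both (adjusted p = 0.142), and all its treated samples (173 to 297) lay below DMSO (314 to 524). *Il15ra*, which presents IL-15, came to -0.77 ± 0.26 (adjusted p = 0.197) and overlapped with DMSO in 1 Pacritinib sample. *Ifnar2*, a chain of the interferon receptor, was at -0.41 ± 0.14 for Pacritinib and -0.14 ± 0.14 for Ruxolitinib.

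Inhibitors of the pathway, which include STAT targets that close the feedback loop, gave 0 calls among 20 of 20 tested, with a median of -0.02 for both together and 10 of 20 below 0. *Cish*, a STAT5-induced inhibitor, was below DMSO (1993 to 2571) in every treated sample, at 1487, 1509 and 1807 with Pacritinib and 1823, 1897 and 1408 with Ruxolitinib. Its log2 fold change was -0.52 ± 0.18 for Pacritinib, -0.43 ± 0.18 for Ruxolitinib and -0.48 ± 0.15 for both (adjusted p = 0.15, limma). *Socs1*, the interferon-induced inhibitor of JAK1 and TYK2, spread widely with DMSO, at 3582, 2986 and 618 in s1 and 2451, 5735 and 754 in s2. With Ruxolitinib it was 795, 966 and 893 (log2 fold change -1.20 ± 0.55) and with Pacritinib 1012, 1126 and 2082 (-0.61 ± 0.55), all within the DMSO range. *Socs3*, which restrains IL-6 signaling, came to -0.36 ± 0.14 for Pacritinib and -0.16 ± 0.14 for Ruxolitinib. *Usp18*, an interferon-induced brake on IFNAR2, came to -0.55 ± 0.32 and -0.72 ± 0.32. *Socs5* and the adaptor *Sh2b3* had values above 0 for Pacritinib, 0.60 ± 0.19 (adjusted p = 0.118) and 0.70 ± 0.23 (adjusted p = 0.141), and -0.22 ± 0.19 and 0.13 ± 0.23 for Ruxolitinib. *Ptpn1*, a phosphatase of JAK2 and TYK2, came to -0.12 ± 0.13 for Pacritinib and to -0.42 ± 0.13 for Ruxolitinib, where all 3 samples (1469 to 1537) lay below DMSO (1736 to 2376; adjusted p = 0.956).

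Interferon beta itself, the ligand that LPS induces, stood above DMSO on average without passing the test. *Ifnb1* had values of 129, 99 and 75 in DMSO s1 and 262, 79 and 86 in s2, of 304, 329 and 101 with Pacritinib and of 181, 164 and 171 with Ruxolitinib. The Ruxolitinib samples lay above 5 of the 6 DMSO samples, and Pacritinib R3 lay among them. The log2 fold change was 0.98 ± 0.40 for Pacritinib (interval 0.19 to 1.77), 0.65 ± 0.40 for Ruxolitinib (-0.14 to 1.44) and 0.81 ± 0.33 for both (adjusted p = 0.266, limma). Of 10 cytokines that signal through JAKs, 9 had a log2 fold change above 0 for Pacritinib (median 0.46) and 1 for Ruxolitinib (median -0.19), and 0 passed in either. Of all 12714 genes, 7814 and 7445 were above 0. In single samples the list median was 0.537, 0.69 and -0.255 with Pacritinib and -0.164, 0.0 and -0.52 with Ruxolitinib. It ran from -0.534 to 0.63 with DMSO. Among these cytokines *Il27*, a member of the IL-12 family, was below 0 with both drugs (-0.81 ± 0.37 and -0.69 ± 0.37).

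The interferon-stimulated genes, most of which depend on IFNAR and thus on JAK1 and TYK2, gave 0 DEGs among 89 of 91 tested in each comparison. With Ruxolitinib 81 of the 89 had a log2 fold change below 0 (median -0.37), against 41.4% of all genes (median 0.04), and 16 were lower at an unadjusted p under 0.05 (2.33% of all genes). With Pacritinib 46 of 89 were below 0 (median -0.03), against 38.5% of all genes (median 0.10), and 10 were lower at that p (5.14% of all genes). The spread of this list between samples was large. Its median in single samples was 0.23, 0.27 and -0.65 in DMSO s1, 0.70, -0.01 and -0.39 in DMSO s2, 0.12, 0.11 and -0.23 with Pacritinib and -0.27, -0.25 and -0.62 with Ruxolitinib. All 3 Ruxolitinib samples were thus within the DMSO range, each below at least 4 of the 6 DMSO samples. Of the DMSO samples of the same number, Ruxolitinib R1 and R2 lay below both and R3 below s2 R3 only.

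Among single interferon-stimulated genes, *Tor3a*, an ATPase of the endoplasmic reticulum, had the smallest p for both JAKi together. Its values were 3642 to 7142 with DMSO, 2271, 2341 and 3705 with Pacritinib and 2749, 3887 and 2438 with Ruxolitinib (log2 fold change for both -0.73 ± 0.18, adjusted p = 0.05 as rounded, not past the threshold in limma). Pacritinib R3 and Ruxolitinib R2 overlapped with DMSO. *Tap1*, the peptide transporter of antigen presentation, came to -0.65 ± 0.21 for Pacritinib and -0.66 ± 0.21 for Ruxolitinib (both together, adjusted p = 0.0672). *Cmpk2*, a mitochondrial nucleotide kinase, came to -1.18 ± 0.39 and -0.91 ± 0.39 (adjusted p = 0.124) and varied from 10614 to 36530 between DMSO samples. *Irf1*, a GAS-driven factor that amplifies interferon responses, came to -0.63 ± 0.19 with Pacritinib and -0.40 ± 0.19 with Ruxolitinib (adjusted p = 0.117). Its 3 Pacritinib samples (6552 to 9636) lay below all DMSO samples (10687 to 14275), and 1 Ruxolitinib sample (11331) did not. *Parp9*, an ADP-ribosyltransferase family member that overlaps *Dtx3l* on the other strand, came to -0.16 ± 0.15 with Pacritinib and -0.48 ± 0.15 with Ruxolitinib.

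**Figure D3:**
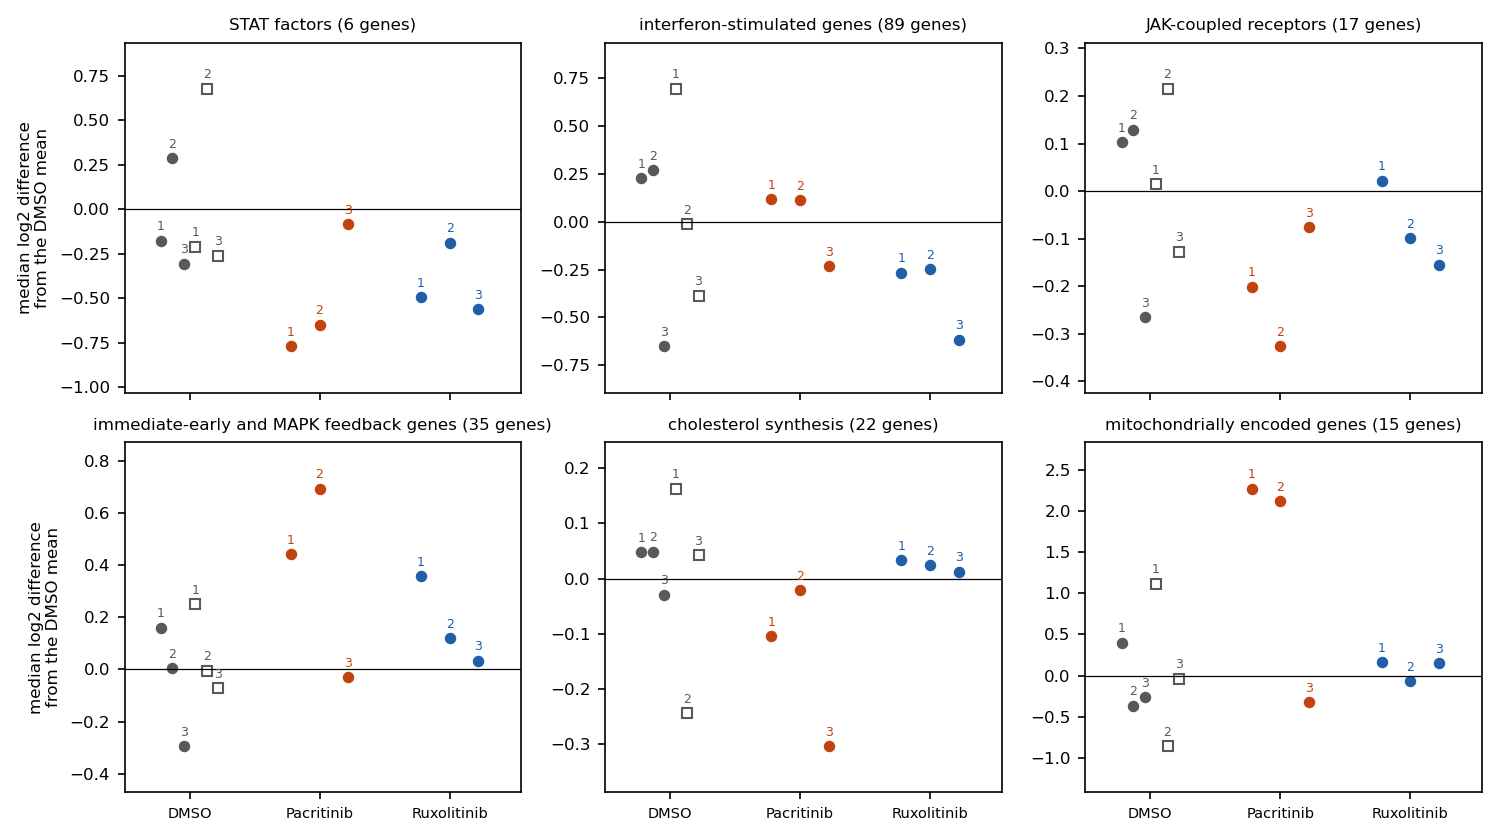
Median, over the tested genes of 6 gene lists, of the log2 difference of each sample from the DMSO mean (vertical axis, one point per sample; filled circles, DMSO s1; open squares, DMSO s2; digits, replicate). The STAT factors are lowest in Pacritinib R1 and R2 (-0.77 and -0.65), the interferon-stimulated genes span -0.65 to 0.70 within DMSO, and the mitochondrially encoded genes separate Pacritinib R1 and R2 from R3.

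Genes that STAT3 or IL-10 induces gave 0 calls among 18 (median -0.12 for both, 13 below 0). *Arid5a*, which stabilizes cytokine mRNAs, came to -0.68 ± 0.19 with Pacritinib and -0.55 ± 0.19 with Ruxolitinib (both together, adjusted p = 0.0532, limma). *Bcl6*, a STAT-regulated repressor, belongs instead to the list of STAT5 targets and PIM kinases. It was 573, 438 and 237 with Pacritinib and 286, 184 and 310 with Ruxolitinib against 107 to 319 with DMSO. The highest DMSO sample (s2 R1) exceeded Pacritinib R3 and all Ruxolitinib samples, and the log2 fold change was 1.18 ± 0.30 for Pacritinib (adjusted p = 0.0768) and 0.56 ± 0.30 for Ruxolitinib.

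The other DEGs that separated all 6 treated samples from DMSO were of varied function. *Rbm43*, an interferon-inducible RNA-binding protein, had values of 524 to 721 with DMSO, 368, 383 and 482 with Pacritinib and 375, 465 and 401 with Ruxolitinib. The highest treated sample, Pacritinib R3, was below the lowest DMSO sample, and *Rbm43* was 1.42-fold lower with both JAKi (log2 fold change -0.51 ± 0.12, adjusted p = 0.0327, limma). The drugs gave almost the same value, -0.52 ± 0.14 for Pacritinib and -0.50 ± 0.14 for Ruxolitinib. *Marchf5*, a ubiquitin ligase of the outer mitochondrial membrane, had values of 441 to 892 with DMSO, 355, 377 and 437 with Pacritinib and 335, 390 and 310 with Ruxolitinib. Its lowest DMSO sample stood just above Pacritinib R3, and the log2 fold change for both was -0.63 ± 0.15 (adjusted p = 0.0481), with -0.55 ± 0.19 for Pacritinib and -0.72 ± 0.19 for Ruxolitinib.

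*Aldh1b1*, a mitochondrial aldehyde dehydrogenase, fell both with Pacritinib alone and with both together. Its values were 176 to 259 with DMSO, 105, 158 and 107 with Pacritinib and 150, 153 and 145 with Ruxolitinib. The log2 fold change was -0.72 ± 0.15 for Pacritinib (adjusted p = 0.0106, limma), -0.42 ± 0.15 for Ruxolitinib and -0.57 ± 0.12 for both (adjusted p = 0.0145). *F3*, tissue factor, which starts blood coagulation, was 2.12-fold lower with both. It stood at 85 to 151 with DMSO, 44, 36 and 63 with Pacritinib and 72, 76 and 50 with Ruxolitinib, and the adjusted p was 0.0459 for Pacritinib and 0.0497 for both. *Gm45935*, a predicted gene that overlaps *Phf11c* and *Setdb2* on its own strand so that its reads are uncertain, fell as well (log2 fold change -1.04 ± 0.25 for both, adjusted p = 0.0497).

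*Id3*, an inhibitor of DNA-binding helix-loop-helix factors and a classical target of BMP receptors, rose 1.79-fold with both JAKi. Its values were 579 to 1035 with DMSO, 1396, 2034 and 1228 with Pacritinib and 1223, 1269 and 1823 with Ruxolitinib. Every treated sample exceeded every DMSO sample, and the log2 fold change was 0.89 ± 0.24 for Pacritinib, 0.79 ± 0.24 for Ruxolitinib and 0.84 ± 0.20 for both (adjusted p = 0.0417, limma). Of the 6 BMP and ACVR1 targets tested, *Id3* was the only one that passed. *Id1* came to 1.03 ± 0.47 with Pacritinib and 1.06 ± 0.47 with Ruxolitinib (both together, adjusted p = 0.213), and its values overlapped with DMSO. *Trem1*, an activating receptor that amplifies TLR responses, had values of 25 to 57 with DMSO, 111, 142 and 64 with Pacritinib and 62, 93 and 100 with Ruxolitinib. It rose 1.99-fold with both (log2 fold change 1.00 ± 0.23, adjusted p = 0.0389). *Fbxo45*, a ubiquitin ligase subunit (DMSO 8 to 16, Pacritinib 25 to 58, Ruxolitinib 19 to 24), and *Wdr76* (DMSO 6 to 13, Pacritinib 21 to 33, Ruxolitinib 15 to 21) rose from values at which counting error is large. *Fbxo45* had a log2 fold change of 1.14 ± 0.24 (adjusted p = 0.0145) and *Wdr76* of 1.22 ± 0.29 (adjusted p = 0.0389) for both together, and each also rose with Pacritinib alone (adjusted p = 0.0106 and 0.0449).

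Of these 10 genes, all 10 lost the call of both JAKi together without DMSO s2 R2 (adjusted p 0.0654 to 0.329, limma), Pacritinib R1 (0.054 to 0.167) or Ruxolitinib R3 (0.0918 to 0.228). Without Pacritinib R2, 9 lost it (to 0.303) and *Aldh1b1* kept it. Without DMSO s1 R2, 8 lost it (to 0.15), *Irf8* and *Fbxo45* being the exceptions. Without Ruxolitinib R1 6 did (to 0.11), without DMSO s1 R1 5 (to 0.0606), without DMSO s1 R3 3 (to 0.0552), and 1 each without DMSO s2 R3 (*Wdr76*, 0.0579) and Ruxolitinib R2 (*Trem1*, 0.0507). Without Pacritinib R3 or DMSO s2 R1 all 10 passed. The remaining 9 of the 19 DEGs overlapped with DMSO in at least 1 treated sample. They include *Asb13* (-0.88 ± 0.19), the histone gene *H3f3b* (-0.36 ± 0.07), the circadian repressor *Nr1d1* (1.44 ± 0.33) and the chemokine receptor *Cxcr4* (1.80 ± 0.43), which were picked after their values were seen.

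**Figure D4:**
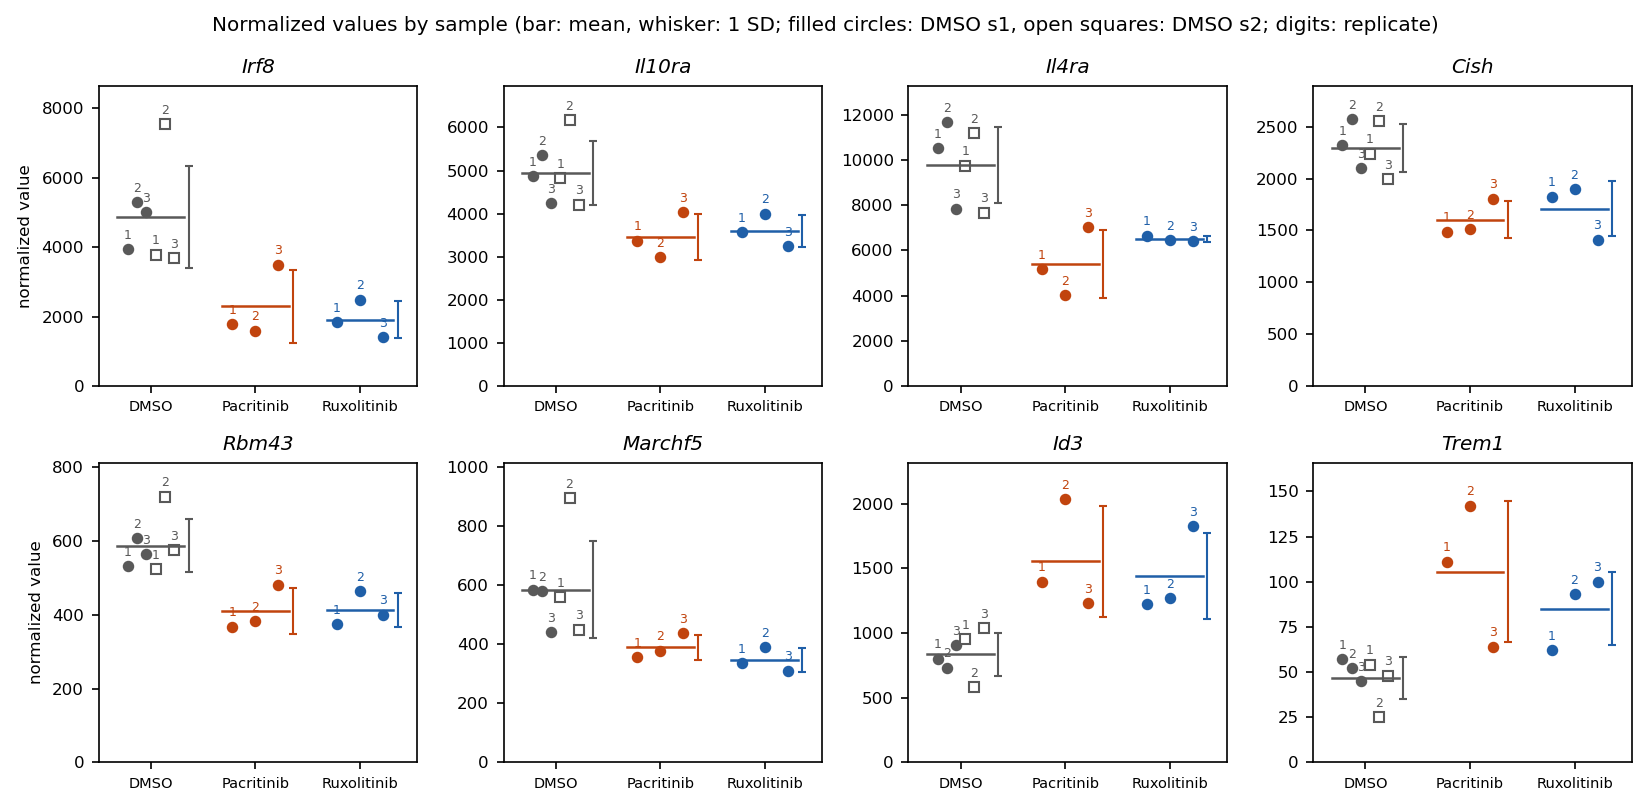
Normalized values of 8 genes in each sample (points; filled circles, DMSO s1; open squares, DMSO s2; digits, replicate) with the mean (bar) and 1 SD (whisker) of each group, on linear axes from 0. In all 8 the 6 treated samples lie on one side of the 6 DMSO samples, and for *Irf8* Pacritinib R3 (3493) comes close to the lowest DMSO sample (3680).

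With Pacritinib alone, 12 of the 22 DEGs had 3 samples beyond all DMSO samples, 6 lower and 6 higher. Across all genes this held for 143 (1.12%) below and 209 (1.64%) above. *Cyp51*, the lanosterol demethylase of cholesterol synthesis, had values of 999 to 1280 with DMSO and of 803, 714 and 904 with Pacritinib. It fell 1.49-fold (log2 fold change -0.57 ± 0.12, adjusted p = 0.0129, limma), whereas the Ruxolitinib samples (1043, 1265 and 917) overlapped with DMSO (-0.16 ± 0.12, interval -0.40 to 0.07). The difference between the drugs was not tested. *Cyp51* was the only one of 22 cholesterol synthesis genes to pass. The list had a median of -0.15 for Pacritinib with 14 below 0 and of 0.02 for Ruxolitinib with 9 below 0. Its neighbors in the pathway *Sc5d* (-0.41 ± 0.12, adjusted p = 0.0919) and *Sqle* (-0.50 ± 0.19, adjusted p = 0.177) stood below 0 with Pacritinib without passing, and at 0.04 ± 0.12 and -0.01 ± 0.19 with Ruxolitinib.

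*H3f3b*, which encodes the replacement histone H3.3, fell with Pacritinib from 28805 to 35489 with DMSO to 22988, 22203 and 27410 (-0.42 ± 0.09, adjusted p = 0.0182, limma). It was 25824, 28920 and 23662 with Ruxolitinib (-0.30 ± 0.09), where 1 sample overlapped with DMSO. The zinc finger gene *Zfp995* fell from 25 to 41 down to 20, 17 and 19 (-0.85 ± 0.21, adjusted p = 0.0459), and stood at 28, 32 and 33 with Ruxolitinib. *Gm11696* fell as well (-0.87 ± 0.21, adjusted p = 0.0431), but it lies opposite to *Gna13* and strand was not stated to be used in counting. The genes that rose with Pacritinib were low. *Tm7sf3*, a membrane protein gene, went from 15 to 32 up to 57, 72 and 34 (1.15 ± 0.26, adjusted p = 0.0304). *Zfp740* rose by 0.88 ± 0.21 (adjusted p = 0.0449) and the predicted gene *Gm12589* by 2.26 ± 0.46 (adjusted p = 0.0106), the latter from values of 1 to 8. With Ruxolitinib *Tm7sf3*, *Zfp740* and *Gm12589* stood at 0.30 ± 0.26, -0.11 ± 0.21 and 1.22 ± 0.46. *Myd88*, the adaptor of TLR signaling, was below DMSO in all 3 Pacritinib samples but did not pass (-0.47 ± 0.12, adjusted p = 0.0817).

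All 12 of these DEGs were lost without Pacritinib R1 (adjusted p 0.0641 to 0.484, limma), and 11 without Pacritinib R2 (to 0.879), *Aldh1b1* being the exception. Leaving out a DMSO sample cost 7 of the 12 (s2 R3, to 0.0743), 6 (s2 R2, to 0.212, or s1 R3, to 0.14), 5 (s1 R2, to 0.0973) or 3 (s1 R1, to 0.0604), and none without s2 R1. Without Pacritinib R3 all 12 passed. The 10 DEGs that overlapped with DMSO included *Cxcr4* (83, 84 and 26 with Pacritinib, 2 to 55 with DMSO) and the GSK3 inhibitor *Frat1* (9, 29 and 10, against 0 to 9), both picked after their values were seen.

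With Ruxolitinib alone 89 genes (0.7%) had all 3 samples below DMSO and 136 (1.07%) all 3 above, and 0 passed the adjusted p. After *Irf8*, those of small p below DMSO included *Marchf5* (adjusted p = 0.687, limma), *Asb13* and *Rbm43*. *Asb13*, a SOCS box protein gene, had values of 123, 144 and 85 against 173 to 291 (-0.83 ± 0.23). Above DMSO, the smallest p belonged to *Sh2b2*, an adaptor that binds JAK2, at 279, 295 and 265 against 128 to 176 (0.79 ± 0.21, adjusted p = 0.687). It was 208, 217 and 254 with Pacritinib (0.48 ± 0.21), so all 6 treated samples exceeded DMSO without passing for both together (0.63 ± 0.17, adjusted p = 0.088). *Zfp948* (1.09 ± 0.30), *Dido1* (0.53 ± 0.16) and *Nr1d1* (1.34 ± 0.41) were next. *Myc*, a growth-promoting transcription factor, was above DMSO (212 to 398) in all 3 Ruxolitinib samples (639, 492 and 542; 0.73 ± 0.22, adjusted p = 0.956).

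Inflammatory and early response genes outside the JAK pathway gave 0 calls in each comparison. Among 48 NF-kB inflammatory genes the median was 0.21 for Pacritinib and -0.04 for Ruxolitinib. In Pacritinib R1, R2 and R3 this list stood at 0.225, 0.359 and -0.112. *Cxcl1*, a neutrophil attractant, lay above DMSO (622 to 786) in all 6 treated samples (925, 1081 and 864 with Pacritinib, 809, 1353 and 970 with Ruxolitinib) without passing (0.54 ± 0.16 for both, adjusted p = 0.112, limma). Among 35 immediate-early and MAPK feedback genes the median was 0.43 for Pacritinib (27 above 0) and 0.16 for Ruxolitinib (23 above 0). Of all 12714 genes, 7814 and 7445 were above 0. In Pacritinib R1, R2 and R3 the list stood at 0.442, 0.694 and -0.029. *Egr2*, a zinc finger factor of this list, was 504, 510 and 192 with Pacritinib, 282, 211 and 271 with Ruxolitinib and 104 to 233 with DMSO, so that it overlapped in R3 of the one and R2 of the other. *Mxd1*, an antagonist of MYC, and the ubiquitin ligase *Rnf139* lay below DMSO in all 6 treated samples without passing for both together (-0.53 ± 0.13, adjusted p = 0.05 as rounded, and -0.78 ± 0.20, adjusted p = 0.0532). The 15 mitochondrially encoded genes had a median of 1.35 for Pacritinib with 0 calls, and in single Pacritinib samples the list stood at 2.27, 2.12 and -0.32. Ruxolitinib stood at 0.09. Macrophage identity genes had medians of 0.33 and 0.06 with 0 calls among 25, and stood at 0.587, 0.64 and -0.152 in Pacritinib R1, R2 and R3. Targets of STAT5 and the PIM kinases had medians of 0.11 and -0.06 with 0 calls among 12. Genes of the kinases that either drug binds had -0.09 and -0.04 with 0 among 11.

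Set beside all 59 groups, DMSO lay near an end of the range for most of these genes. By mean log2 value *Irf8* ranked 2nd of 59 with DMSO (12.2; median of the other 56 CKIs 11.3), 36th with Pacritinib (11.1) and 48th with Ruxolitinib (10.9). *Id3* ranked 54th with DMSO, 13th with Pacritinib and 19th with Ruxolitinib. *Trem1* was lowest of all groups with DMSO and ranked 13th with Pacritinib and 26th with Ruxolitinib. *Rbm43* ranked 4th with DMSO, 56th with Pacritinib and 55th with Ruxolitinib, and *Cyp51* 2nd, 47th and 8th. *Il10ra*, *Il4ra*, *Il13ra1* and *Cish* ranked 3rd, 5th, 4th and 4th with DMSO. Their log2 levels were 11.75, 12.36, 7.83 and 10.64 with Pacritinib and 11.81, 12.67, 8.04 and 10.73 with Ruxolitinib. The medians of the other 56 CKIs were 11.88, 12.71, 8.03 and 10.76. These positions are levels without a test, and the concentrations differed between CKIs. *Irf8* was lower at an adjusted p under 0.05 in 17 of the 58 CKIs, among them all 4 of the other JAKi, with log2 fold changes of -2.23 for Filgotinib, -1.39 for Momelotinib, -1.36 for BMS911543 and -1.32 for Tofacitinib. *Rbm43* was lower in 4 of 58, of which Filgotinib (-1.09), Momelotinib (-0.63) and Tofacitinib (-0.47) were JAKi. Of the 89 interferon-stimulated genes, 35 were lower with Filgotinib (14.6% of all genes), 5 with Momelotinib (0.409%), 3 with Tofacitinib (0.857%), 1 with BMS911543 (8.08%) and 0 with Pacritinib (0.0551%) or Ruxolitinib (0.0%).

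**Figure D5:**
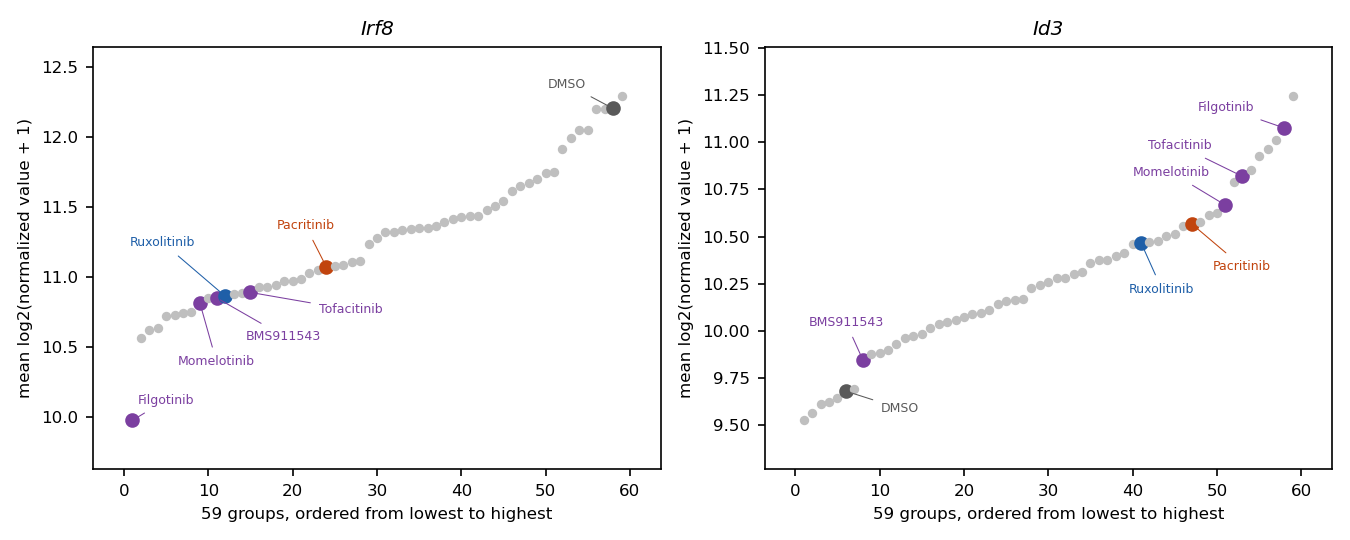
Mean of log2(normalized value + 1) of *Irf8* and *Id3* in the 59 groups (58 CKIs with 3 samples each and DMSO with 6), ordered from lowest to highest, with DMSO, Pacritinib, Ruxolitinib and the other 4 JAKi named and the remaining CKIs in gray. For *Irf8* DMSO ranks 2nd at 12.2 and both drugs lie at 11.1 and 10.9. For *Id3* DMSO ranks 54th from the highest, Pacritinib 13th and Ruxolitinib 19th.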

How the data were processed

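RNA was measured by SMART-seq2 from total RNA, with oligo(dT) priming and Tn5 fragmentation. Per the labels and the study's methods, the authors aligned reads to mm10 (the submitters' notes name TopHat2 2.1.1, bedtools 2.29.2, R 3.6.2 and DESeq2), counted exonic reads per gene and scaled samples on invariant genes. The deposited values are therefore a score, scaled counts rounded to whole numbers, which keep no read depth, so no count model was used. Use of strand in counting was not given in the sources used here, so reads of named genes that overlap another gene on the opposite strand (among them *Trem1*, *Zfp740*, *Nr1d1*, *Rnf139* and *Bcl6*) are uncertain. Tests used limma 3.58.1 (R 4.3.3) on log2(value + 1), with a variance trend, all 59 groups in 1 fit, genes with a mean of at least 10 over 180 samples (12714 of 45070) and Benjamini-Hochberg adjustment at 0.05. Fold changes are on that scale and understate those of low genes. Tables and figures were made with Python 3.11.15, NumPy 2.4.6, pandas 2.3.3 and matplotlib 3.10.9. The code was tested on simulated data without differences between libraries, so that test does not bear on the dependence on single libraries described above.

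Named genes were the JAK kinases, STAT factors, pathway inhibitors, *Ifnb1*, up to 4 genes of smallest p per list, and up to 8 genes per direction of largest change among those past the threshold that did not overlap with DMSO, or, where fewer passed, those of smallest p. Some genes that the rule names are not reported here. The members and lists were chosen with earlier results of these data known. Same-numbered Ruxolitinib and DMSO samples deviated together (r = 0.455, 0.456 and 0.321), from the numbers in the titles. Ruxolitinib had 0 DEGs with a replicate block as without it. Its genes at an unadjusted p under 0.05 in limma's test went from 590 to 936. The counts for Pacritinib and for both together rose with the block and are given below. Alternatives were the pseudocount, filter, scaling, control set, variance model, block, mitochondrial share and leaving out each library.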

Additional observations from a re-analysis of the deposited data

Results flagged for a closer look

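In 6 of the 68 genes checked, 1 of the 6 DMSO samples lay far from the others, its gap to the nearest exceeding 0.625 of the group's range. Chance does this in about 1 in 20 groups. The sample was DMSO s2 R2 for *Marchf5* (892, next 584), *Il13ra1* (524, next 381) and *Gm11696* (86, next 51). It was DMSO s2 R1 for *Ifnb1* (262, next 129) and *Cyp51* (999, next 1199), and DMSO s1 R2 for *Aldh1b1* (259, next 204). Of the calls of these genes, those lost without the outlying sample were *Marchf5* for both JAKi together (adjusted p = 0.329, limma), *Gm11696* for Pacritinib (0.212) and *Aldh1b1* for both together (0.0939), while *Aldh1b1* and *Cyp51* kept theirs for Pacritinib (0.0468 and 0.00284).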

How the results depend on the processing

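The number of genes past the threshold depended on the processing more than the fold changes did, and the cause was not tested. For Pacritinib it was 154 with no filter, 5 with a minimum mean of 50, 39 after a second scaling, 6 and 1 against only the s1 or the s2 DMSO samples, 0 with only the compared groups in the fit and 1819 with array weights. For both JAKi together it was 8 with a pseudocount of 10, 5 with the minimum of 50, 46 after the second scaling, 0 against either DMSO set alone or with only the compared groups, and 343 with array weights. For Ruxolitinib it was 100 with no filter. Leaving out 1 library gave 0 to 1989 for Pacritinib, 0 to 0 for Ruxolitinib and 0 to 283 for both.

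With the replicate block it was 426 for Pacritinib and 128 for both, and with the block and the mitochondrial share 2 for Pacritinib and 19 for both, of which 12 were among the 19 DEGs of the report. Same-numbered Pacritinib and DMSO samples did not all deviate together (r = 0.569, -0.263 and 0.283). Pacritinib R2 deviated most with the DMSO samples numbered R1 (0.403) and R3 with those numbered R2 (0.483). Whether the numbers pair Pacritinib with DMSO samples was not settled by these values.

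Log2 fold changes near 0 turned sign for both together. *Jak2* went to -0.055 (second scaling), -0.042 (s2 only), -0.145 (block and mitochondrial share) and -0.082 (array weights), *Jak1* to 0.085 (s1 only) and *Jak3* to 0.004 (block and mitochondrial share). Leaving out 1 library gave -0.161 to 0.133 for *Jak2*, -0.201 to 0.056 for *Jak1* and -0.1 to 0.0 for *Stat6*. Of the other values of single genes, 1782 kept direction and side of the threshold, 125 newly passed and 261 no longer passed. The 1782 include values past the threshold in neither fit, and so do not measure how stable the calls were. The calls lost without each library are given above.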
